A study of Mus musculus with 6 samples.

Results

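The genes described here are 50 genes of fatty acid synthesis, desaturation and elongation, oxidation, uptake and storage, a list made by name from textbook roles and not by measured values. All 50 had at least 1 probe among the 20659 genes named on the array, and 66 probes represent them. They were measured in cultured mouse liver cells sorted for CD63, a tetraspanin protein found on the cell surface and in late endosomes. Of the 6 arrays, 3 held RNA of cells from livers with DDC injury and 3 held RNA of cells from livers without injury. DDC is a collidine compound that blocks haem synthesis and is used in mice to provoke bile duct injury and the spread of ductular progenitor cells. Cells of both groups came from adult liver and were grown in 1 medium based on DMEM/F12 with fetal bovine serum, HGF, EGF, insulin, transferrin, selenium, dexamethasone and nicotinamide, all of which stayed in the medium of the uninjured cultures too. VEGF and bFGF were added to some cultures whose names match no sample title, so that treatment could not be assigned to arrays and may differ between the groups. The strain, the sex, the age, the number of animals and the dose and duration of DDC are not given in the sources used here, and the series speaks of cell lines. P-values therefore measure only the spread between these samples, which may be technical.

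Fatty acids are built in the cytosol from acetyl-CoA, which ATP citrate lyase (Acly) releases from citrate, acetyl-CoA carboxylase turns into malonyl-CoA and fatty acid synthase (Fasn) joins into palmitate. Enzymes of the endoplasmic reticulum then lengthen the chains (Elovl genes) and place double bonds in them (Scd and Fads genes). Fatty acids are either burnt in mitochondria and peroxisomes or esterified to glycerol and stored in lipid droplets coated by perilipins. In liver, hepatocytes carry most of this traffic, under the control of SREBP, LXR and PPAR transcription factors.

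The signal of each array was taken as log2 of the processed spot signal minus the 75th percentile of that array, so a level of 0 is as bright as the 75th percentile. Levels of different genes come from different probes and were not set against each other, except in the sums of marker genes. Such a sum follows its brightest probes and is not a count of cells. The 75th percentile lay between 1441 and 2271 intensity units, 65.0% to 74.8% of spots were well above background, and no spot was saturated. On 138 repeated probes brighter than the 75th percentile, no-injury replicates 1 and 3 differed by no more than repeated spots of 1 array (p = 0.164, Fisher-combined tests of repeated spots), while over all 261 repeated probes, dim ones included, they did differ (p = 1.56e-07). Their disagreement was 1.16 times the spot noise in the bright probes, against 1.63 and 2.2 for the other pairs of no-injury arrays and 4.66 to 19.4 for pairs of DDC injury arrays. These 2 arrays were averaged into 1 sample, which leaves 3 DDC injury samples and 2 no-injury samples. Their agreement was already known from an earlier analysis of these data, so the test is no independent support for averaging them. The scan of DDC injury replicate 1 was made on another day than the rest, the other DDC injury arrays shared 1 scan and the no-injury arrays another, so scan and group cannot be told apart. Cd63 itself read 3.65, 4.07 and 3.70 in DDC injury cells, against 3.94, 3.88 and 3.95 in no-injury cells, with no difference past the test (adjusted p = 0.66). Summed markers of bile duct cells were at 5050% to 5580% of the 75th percentile in DDC injury cells, against 5920% to 6000% in no-injury cells. Spp1 alone was 54.4% to 70.1% of that sum over the 6 arrays, and Onecut1 was above background on none. Of 8 genes of that list tested, Epcam and Sox9 were lower in DDC injury cells and 6 did not pass, Krt19 (0.37) and Krt7 (0.16) among them. Summed hepatocyte markers were at 1110% to 1770%, against 2990% to 3420%, with 5 of 10 markers lower in DDC injury cells. Of these 5, Apoa1 and Fga were above background in no-injury cells alone, so their calls lend the count no support. Of mesothelial markers, 2 of 3 tested were lower, Wt1 and Upk3b, while Msln at 0.15 did not pass (adjusted p = 0.467). Wt1, at -3.30 (adjusted p = 0.0101), was well above background on only 1 DDC injury array, so its size is uncertain. No DDC injury array measured Upk3b above background. Both reached the filter of 3 arrays by the no-injury group, so their calls lend the count no support. The mesothelial sums were 4540%, 4420% and 4810% in DDC injury cells, against 3580%, 2320% and 4020% in no-injury cells, where the sum of no-injury replicate 2 lacks Krt8, whose spot was flagged. The part of mesothelial cells in the results was not tested.

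In DDC injury cells 5 enzymes of polyunsaturated and long-chain fatty acid synthesis were higher, as were the lipid-binding protein Fabp5, the lipase inhibitor Angptl4, the acyl-CoA synthetases Acsl3 and Acsl4 and the carnitine palmitoyltransferase Cpt1b. Lower were 4 genes of triglyceride storage, the carnitine palmitoyltransferase Cpt1a and the peroxisomal enzyme Ehhadh. Of these, Elovl5 (adjusted p = 0.048) and Plin3 (adjusted p = 0.0417) lay close to the threshold and each lost its call under 7 of 19 alternatives. The genes that build palmitate did not pass the test. Of the 50 genes, 45 were bright enough to be tested, 3 (Elovl2, Elovl3 and Fabp1) were too dim, and 2 (Fads3 and Pnpla2) lost spots to the scanner's quality flags. Among the 45, 10 were higher in DDC injury cells and 6 lower, and 29 did not pass (limma, Benjamini-Hochberg adjusted p under 0.05 over all genes tested). The 6 lower genes include Ehhadh, which was above background in no-injury cells alone, so its call lends the count no support. Over all 15619 genes tested, 17.7% were called higher and 15.8% lower, so the share of called genes in this list, 35.6%, was near the 33.4% of all genes. The median difference of the 45 genes was -0.09 on the log2 scale, and that of all genes tested was -0.07. At least a 2-fold difference was reached by 8 of the genes called higher and 4 of those called lower, Ehhadh among these 4. Over all 15619 genes tested, 1343 called higher and 1343 called lower reached it. The arrays of the groups did not overlap in 15 of the 45 genes with DDC injury higher and 12 with DDC injury lower, against 31.6% and 31.6% of all genes tested. The plot of levels by array and the plot of differences show all of these genes by role.

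**Figure D1:**
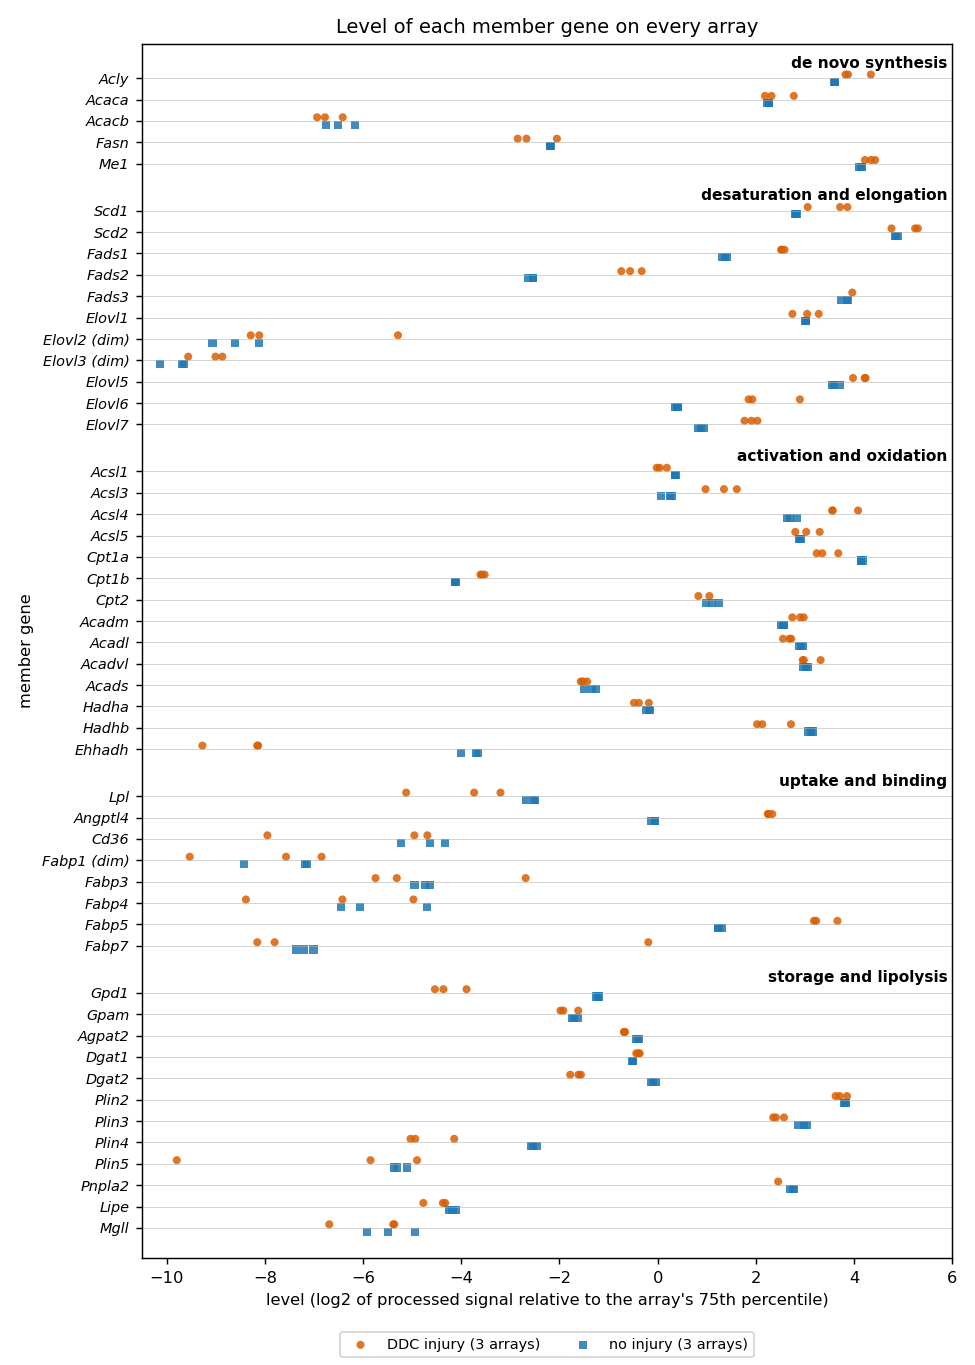
Level of each of the 50 genes on every array, grouped by role. The horizontal axis is log2 of the processed signal relative to the array's 75th percentile, each circle is 1 of 3 DDC injury arrays and each square 1 of 3 no-injury arrays; genes marked dim were above background on fewer than 3 of 6 arrays. The circles lie clear to the right of the squares in Fads1, Fads2, Elovl6, Angptl4 and Fabp5, and clear to the left in Ehhadh, Gpd1, Dgat2 and Plin4.

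**Figure D2:**
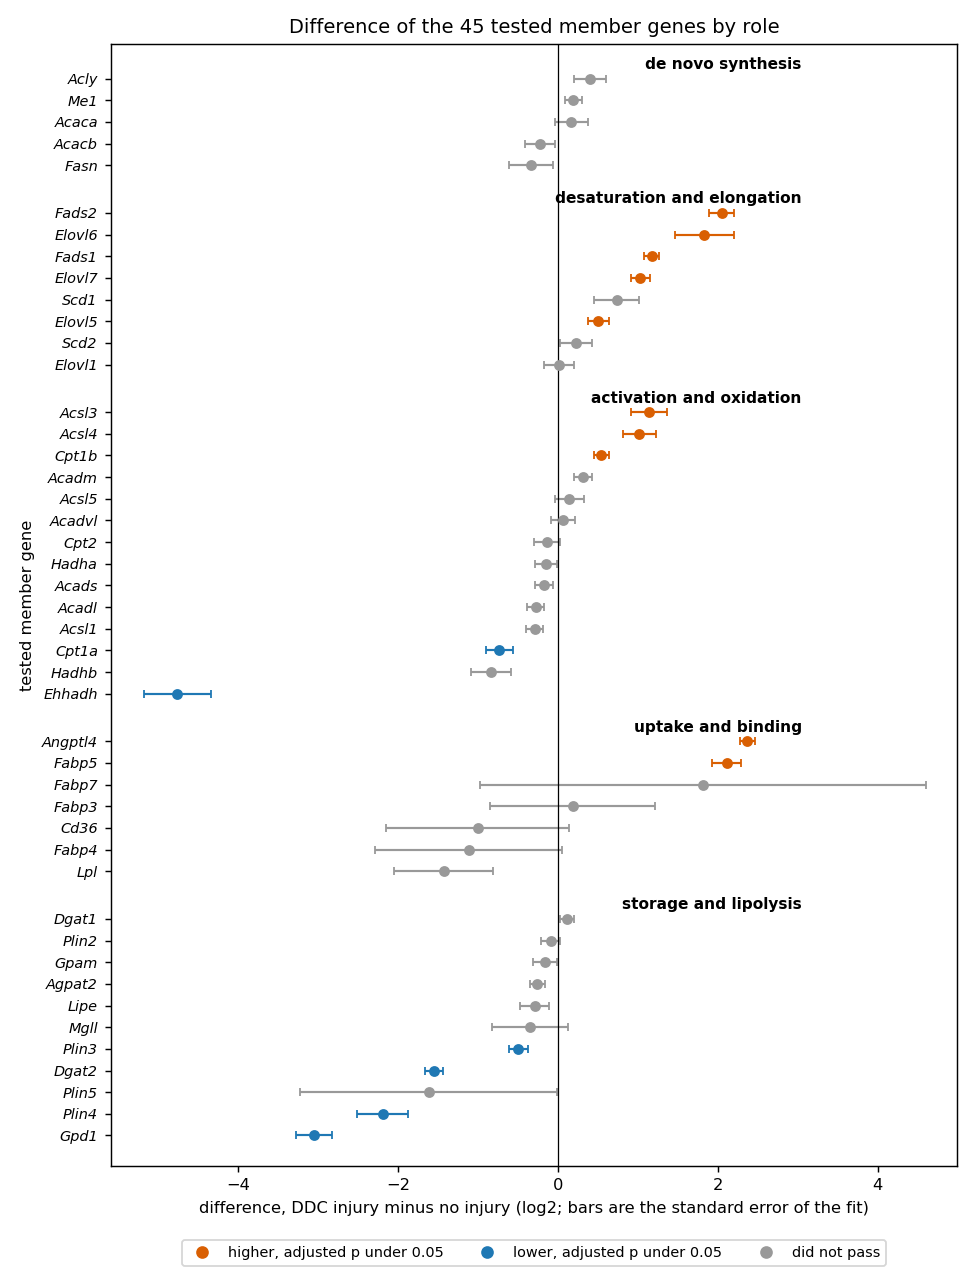
Log2 difference of each of the 45 tested genes between DDC injury and no injury (DDC injury minus no injury), with the standard error of the fit as bars. Coloured points passed an adjusted p of 0.05, 10 to the right and 6 to the left. Among genes above background in both groups the differences run from -3.05 in Gpd1 to 2.37 in Angptl4, and the point of Ehhadh at -4.76 is fitted to DDC injury signals that were not above background.

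The no-injury arrays lay close together and the DDC injury arrays did not. The range over the 3 arrays had a median of 0.488 in DDC injury and 0.098 in no injury over the 45 genes. Because only 2 no-injury samples stand against 3, the calls rest on no-injury replicate 2: without it, 14 of the 16 called genes no longer passed and Angptl4 and Gpd1 still did, with 2.34 (adjusted p = 0.0332) and -3.03 (adjusted p = 0.0491). The 16 differences themselves kept their direction without it, as they did under each of the 19 alternatives tried, or 18 for Ehhadh, which has no value where a gene must be above background on all 6 arrays.

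None of the 5 genes of de novo synthesis passed the test in either direction, and their median difference was 0.17. Acly, which supplies cytosolic acetyl-CoA, had levels of 3.83, 4.34 and 3.88 in DDC injury cells, against 3.61, 3.62 and 3.60 in no-injury cells. All 3 DDC injury arrays were above the no-injury arrays, but the difference of 0.40 ± 0.20 (SE) did not pass (adjusted p = 0.192). A second, dimmer Acly probe gave 0.92 and passed (adjusted p = 0.019 over probes). Acaca, the cytosolic acetyl-CoA carboxylase, read 2.32, 2.77 and 2.19 in DDC injury cells, against 2.24, 2.26 and 2.27 in no-injury cells. Its groups overlapped, and its difference was 0.17 ± 0.21 (adjusted p = 0.582). Fasn, which assembles palmitate, read -2.67, -2.05 and -2.85 in DDC injury cells, against -2.17, -2.19 and -2.20 in no-injury cells. DDC injury replicate 2 lay above the no-injury arrays and the other two lay below them, which gave -0.34 ± 0.27 (adjusted p = 0.406). Without that replicate Fasn was at -0.57 and passed (adjusted p = 0.0253).

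Acacb, the carboxylase isoform tied to mitochondria, differed by -0.22 ± 0.19 (adjusted p = 0.426), and its sign turned under 5 alternatives. Me1, the malic enzyme that makes NADPH for the synthesis, differed by 0.19 ± 0.11 (adjusted p = 0.252), and 1 of its 2 other probes passed with 0.54 (adjusted p = 0.0286 over probes). Among 13 other genes that supply cytosolic acetyl-CoA and NADPH or the mitochondrial synthesis pathway, 3 were higher and 3 lower. That was 23.1% each way, against 17.7% and 15.8% of all genes tested. The higher ones were G6pdx, the entry enzyme of the pentose phosphate pathway, with 1.204 ± 0.14 (adjusted p = 0.00677), the mitochondrial citrate exporter Slc25a1 with 0.86 ± 0.14 (adjusted p = 0.0142) and Mcat, of mitochondrial fatty acid synthesis, with 0.85 ± 0.10 (adjusted p = 0.00734). The lower ones were Mlycd, which degrades malonyl-CoA, with -1.40 ± 0.19 (adjusted p = 0.0105), Oxsm, also of mitochondrial fatty acid synthesis, with -0.65 ± 0.16 (adjusted p = 0.0384), and the thiolase Acat1 with -0.62 ± 0.12 (adjusted p = 0.0217).

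Desaturation and elongation was the class with the highest share called. Of 8 genes tested among 11, 5 were higher in DDC injury cells and none lower, a share of 62.5% against 17.7% of all genes tested, and the median difference was 0.89. The class median stood above the no-injury mean on each DDC injury array, by 1.11, 0.74 and 0.97. Fads2, the delta-6 desaturase that opens the synthesis of polyunsaturated fatty acids, read -0.56, -0.33 and -0.74 in DDC injury cells, against -2.54, -2.64 and -2.55 in no-injury cells. Every DDC injury array was far above every no-injury array, and the difference was 2.05 ± 0.16, or 4.14-fold (adjusted p = 0.00292). Fads1, the delta-5 desaturase next to it in that chain, read 2.58, 2.52 and 2.52 in DDC injury cells, against 1.42, 1.37 and 1.32 in no-injury cells. The DDC injury arrays were nearly equal to each other and all higher, with 1.17 ± 0.09, or 2.25-fold (adjusted p = 0.00295). Elovl6, which lengthens palmitate to stearate, read 1.85, 2.90 and 1.93 in DDC injury cells, against 0.41, 0.41 and 0.35 in no-injury cells. DDC injury replicate 2 was the highest and the groups did not overlap, with 1.83 ± 0.37, or 3.56-fold (adjusted p = 0.0262).

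Elovl7, an elongase of long saturated chains, read 2.03, 1.77 and 1.91 in DDC injury cells, against 0.93, 0.83 and 0.89 in no-injury cells, a difference of 1.03 ± 0.12 (adjusted p = 0.00739). Elovl5, which lengthens polyunsaturated chains, differed by 0.50 ± 0.13 (adjusted p = 0.048), close to the threshold. Scd1, the stearoyl-CoA desaturase that makes oleate, read 3.87, 3.06 and 3.72 in DDC injury cells, against 2.82, 2.80 and 2.83 in no-injury cells. All 3 DDC injury arrays were higher, but replicate 2 only narrowly, and the difference of 0.74 ± 0.28 did not pass (adjusted p = 0.117); without replicate 2 it was 0.98 and passed (adjusted p = 0.00832). Scd2, the isoform typical of brain and of developing liver, read 4.76, 5.30 and 5.24 in DDC injury cells, against 4.84, 4.90 and 4.85 in no-injury cells. Its groups overlapped through DDC injury replicate 1, with 0.23 ± 0.20 (adjusted p = 0.448). Elovl1, an elongase of very long saturated chains, differed by 0.01 ± 0.19 (adjusted p = 0.977).

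Elovl2, which extends very long polyunsaturated chains, read -5.29, -8.29 and -8.11 in DDC injury cells, against -9.07, -8.60 and -8.11 in no-injury cells. It was well above background on DDC injury replicate 1 alone, the groups overlapped, and no fold is given. Elovl3 was well above background on no array. Fads3, whose flagged spots were left out of the main fit, differed by 0.07 ± 0.18 with these spots kept (adjusted p = 0.799). Without DDC injury replicate 3, Elovl6 stood at 1.98 (adjusted p = 0.0623) and Elovl5 at 0.46 (adjusted p = 0.125), neither past the threshold, and without replicate 2 Elovl5 stood at 0.47 (adjusted p = 0.0734). Without no-injury replicate 2 none of the 5 called genes passed, with adjusted p from 0.0559 for Fads2 to 0.219 for Elovl5.

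Promoters of Fads2 and Elovl6, the called genes of this class with the largest differences, are printed as RefSeq gives them for GRCm38.p6, from 250 bases before the start to 50 after, 5′ to 3′ on the strand of the gene. Fads2 lies on the minus strand at chr19:10101454-10101753 and Elovl6 on the plus strand at chr3:129532136-129532435. Capitals mark matches on either strand to 3 motifs that do not overlap here: the CCAAT box (CCAAT), the GC box bound by SP factors (GGGCGG) and the sterol regulatory element (TCACNCCAC) recognised by SREBP.
Fads2: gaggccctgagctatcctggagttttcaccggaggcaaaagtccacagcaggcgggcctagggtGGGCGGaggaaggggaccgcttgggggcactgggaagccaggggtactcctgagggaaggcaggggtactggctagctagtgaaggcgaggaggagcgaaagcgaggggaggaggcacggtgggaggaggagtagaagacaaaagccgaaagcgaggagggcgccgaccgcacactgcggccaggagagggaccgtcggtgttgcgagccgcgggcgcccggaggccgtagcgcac
Elovl6: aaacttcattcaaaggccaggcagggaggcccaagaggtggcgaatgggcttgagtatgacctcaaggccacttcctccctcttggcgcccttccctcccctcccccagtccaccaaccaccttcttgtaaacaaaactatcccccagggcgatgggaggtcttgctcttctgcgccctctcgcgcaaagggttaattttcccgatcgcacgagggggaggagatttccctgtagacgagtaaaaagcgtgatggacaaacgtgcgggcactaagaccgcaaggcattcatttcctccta
The Fads2 window holds 1 GC box and no other motif, and the Elovl6 window holds none of the 3. In the table of mouse promoters 37.4% of 32851 windows hold a CCAAT box, 35.7% a GC box and 1.24% this sterol regulatory element. The table matched 38 of the 50 genes with 46 windows, and of these windows 41.3% hold a CCAAT box, 63% a GC box and 4.35% the sterol element. A match is a run of letters, not a measured site.

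Of 14 other genes tested in desaturation and elongation, 4 were higher and 3 lower. Elovl4, which makes very long chains in skin and retina, had the largest difference at 2.86 ± 0.23 (adjusted p = 0.00312). Scd3, a stearoyl-CoA desaturase best known from skin, was higher by 1.74 ± 0.20 (adjusted p = 0.00663), and Cyb5r3, which feeds electrons to the desaturases, by 0.81 ± 0.13 (adjusted p = 0.0147). Scd probes may share signal between near-identical family members, so Scd3 is uncertain. The lower genes were Hacd4, a dehydratase of the elongation cycle, with -1.44 ± 0.24 (adjusted p = 0.0161), the sphingolipid desaturase Degs1 with -0.63 ± 0.10 (adjusted p = 0.014) and Scd4 with -0.60 ± 0.12 (adjusted p = 0.024). The counts here, 28.6% higher and 21.4% lower, were both above those of all genes tested, 17.7% and 15.8%.

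Of the 14 genes of activation and oxidation, all tested, 3 were higher (21.4%, against 17.7% of all genes tested) and 2 lower (14.3%, against 15.8%), shares near those of all genes, with a median difference of -0.14. The acyl-CoA synthetases, which couple free fatty acids to coenzyme A, split by isoform. Acsl3, found on the endoplasmic reticulum and on nascent droplets, read 0.98, 1.61 and 1.35 in DDC injury cells, against 0.25, 0.08 and 0.28 in no-injury cells. The groups were well apart, with 1.14 ± 0.23, or 2.2-fold (adjusted p = 0.0244). Acsl4, which prefers arachidonic acid and other polyunsaturated chains, read 3.56, 4.08 and 3.57 in DDC injury cells, against 2.64, 2.69 and 2.84 in no-injury cells. It too was higher on every DDC injury array, with 1.02 ± 0.21, or 2.03-fold (adjusted p = 0.0263). Acsl1, the main isoform of hepatocytes and fat, was lower on all DDC injury arrays but did not pass, with -0.29 ± 0.11 (adjusted p = 0.115). Acsl5, of mitochondria and the endoplasmic reticulum, differed by 0.14 ± 0.18 (adjusted p = 0.586).

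The carnitine palmitoyltransferases, which admit long chains into mitochondria, went opposite ways. Cpt1a, the liver isoform and the rate-limiting step, read 3.24, 3.68 and 3.35 in DDC injury cells, against 4.14, 4.18 and 4.13 in no-injury cells. All DDC injury arrays were lower, at -0.74 ± 0.17, or 1.67-fold lower (adjusted p = 0.0345), and its other probe gave -0.82 (adjusted p = 0.0104 over probes). Cpt1b, the muscle isoform, read -3.61, -3.52 and -3.58 in DDC injury cells, against -4.13, -4.10 and -4.12 in no-injury cells. It was dim but above background on all 6 arrays, and higher by 0.54 ± 0.09, or 1.46-fold (adjusted p = 0.0171), with 0.87 for its other probe (adjusted p = 0.0132 over probes). Cpt2, which works on the inner membrane and had a value on 2 of 3 DDC injury arrays, differed by -0.14 ± 0.16 (adjusted p = 0.565). Without DDC injury replicate 3, Acsl3 at 1.12, Acsl4 at 1.1, Cpt1a at -0.70 and Cpt1b at 0.55 no longer passed, with adjusted p of 0.0804, 0.061, 0.102 and 0.0571. Without no-injury replicate 2 these 4 genes had adjusted p between 0.178 and 0.218.

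None of the 6 mitochondrial genes of beta-oxidation passed. Acadm, the medium-chain dehydrogenase, read 2.90, 2.98 and 2.74 in DDC injury cells, against 2.52, 2.58 and 2.56 in no-injury cells. It was higher on every DDC injury array, with 0.31 ± 0.12 (adjusted p = 0.108). Acadl, the long-chain dehydrogenase, read 2.69, 2.72 and 2.55 in DDC injury cells, against 2.88, 2.96 and 2.91 in no-injury cells. It lay the other way on every array, with -0.28 ± 0.11 (adjusted p = 0.117). Acadl passed as lower under 5 of 19 alternatives, the authors' deposited values among them, at -0.42 (adjusted p = 0.0487). Acadm passed as higher under 2 of 19. Acadvl, for very long chains, differed by 0.07 ± 0.15 (adjusted p = 0.773) and Acads, for short chains, by -0.17 ± 0.11 (adjusted p = 0.306). The trifunctional protein, which completes the cycle, has the subunits Hadha at -0.15 ± 0.13 (adjusted p = 0.447) and Hadhb at -0.84 ± 0.25 (adjusted p = 0.0654). Hadhb was lower on all 3 DDC injury arrays and passed as lower under 7 of 19 alternatives. Among these was the fit without DDC injury replicate 2, at -1.05 (adjusted p = 0.00687). Of 24 other mitochondrial oxidation genes tested, 4 were higher and 1 lower. These shares of 16.7% and 4.17% stand against 17.7% and 15.8% of all genes tested. Oxct1, which lets cells burn ketone bodies, was higher by 0.93 ± 0.16 (adjusted p = 0.0165), Cpt1c by 0.71 ± 0.15 (adjusted p = 0.029) and the enoyl-CoA isomerase Eci1 by 0.48 ± 0.10 (adjusted p = 0.0291), while Acad10 was lower at -1.47 ± 0.29 (adjusted p = 0.0242).

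Ehhadh, the bifunctional enzyme of peroxisomal beta-oxidation and a PPARalpha target, is described by its level in no-injury cells, since no DDC injury array measured it above background. It read -8.14, -9.27 and -8.16 in DDC injury cells, against -4.00, -3.66 and -3.70 in no-injury cells. It was well above background on all 3 no-injury arrays and on none of the DDC injury arrays, so it entered the test through the no-injury group alone and its level there sets a bound: at least 13.3-fold lower in DDC injury cells. The adjusted p of 0.00384 follows from how it entered and is no support for the difference. The bound holds for the processed signal: with another background correction (normexp) the fitted difference was -1.53, and in the authors' deposited values -2.42, both smaller than the bound of -3.74 on the log2 scale. Without no-injury replicate 2 the fitted difference was -4.67 (adjusted p = 0.058). Its RefSeq promoter window on the minus strand at chr16:21787785-21788084 of GRCm38.p6 is shown because it is 1 of only 2 of the 46 windows with the sterol regulatory element, the other being a window of Acsl1; capitals mark the same motifs as above.
Ehhadh: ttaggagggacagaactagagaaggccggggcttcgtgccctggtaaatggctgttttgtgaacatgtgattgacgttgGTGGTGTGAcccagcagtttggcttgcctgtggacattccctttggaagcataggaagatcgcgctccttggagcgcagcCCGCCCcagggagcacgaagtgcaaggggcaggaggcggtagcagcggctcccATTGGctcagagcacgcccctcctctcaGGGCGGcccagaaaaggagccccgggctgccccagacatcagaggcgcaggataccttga
The window holds 1 CCAAT box, 2 GC boxes and 1 sterol regulatory element.

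The rest of the peroxisomal and omega-oxidation pathway, which shortens very long, branched and omega-hydroxylated chains, was lower more often than higher. Of 21 genes tested, 9 were lower (42.9%, against 15.8% of all genes tested) and 1 higher (4.76%, against 17.7%). The median difference was -0.66. Cyp4a12a, an omega-hydroxylase, was lower, at -5.28 ± 0.54 (adjusted p = 0.00541). It read -7.858, -6.345 and -6.377 in DDC injury cells, against -1.538, -1.627 and -1.532 in no-injury cells. Only 2 of the 3 DDC injury arrays had it well above background, so the size of its difference is uncertain. Acox2, the branched-chain acyl-CoA oxidase that also shortens bile acid precursors, read -1.63, -2.36 and -1.74 in DDC injury cells, against 2.974, 2.961 and 3.004 in no-injury cells, a difference of -4.89 ± 0.26 (adjusted p = 0.0014). Acot4, a peroxisomal thioesterase, was lower, at -3.07 ± 0.43 (adjusted p = 0.0107). It too was well above background on only 2 of the 3 DDC injury arrays, at -7.514, -8.472 and -7.214 in DDC injury cells, so that size is uncertain. Amacr, the racemase that readies branched chains, was higher by 0.98 ± 0.11 (adjusted p = 0.00585). Members of the Cyp4a and Acot families are near-identical in sequence, and probes may share their signal. Summed hepatocyte markers, all 10 of them well above background on each no-injury array and 5, 8 and 7 of them on the DDC injury arrays, stood at 1340%, 1770% and 1110% of the 75th percentile in DDC injury cells, against 2990%, 3420% and 3390% in no-injury cells. These sums follow few probes, and the markers did not move alike: Hnf4a, 84.9% to 93.1% of the sum on DDC injury arrays, differed by -0.09 (adjusted p = 0.747), while Ttr, 52% to 57.7% of it on no-injury arrays, differed by -3.94 (adjusted p = 0.0118) and Alb by -6.14 (adjusted p = 0.00575). Alb was well above background on only 2 of the 3 DDC injury arrays, so that size is uncertain. The part of the hepatocyte markers in the lower peroxisomal genes was not tested, and fewer cells of a type cannot be told apart from less RNA per cell.

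Uptake and binding held the smallest adjusted p of the 50 genes. Of 7 genes tested among 8, 2 were higher (28.6%, against 17.7% of all genes tested) and none lower (against 15.8%). Angptl4, a secreted inhibitor of lipoprotein lipase that fasting, hypoxia and PPAR ligands induce, read 2.26, 2.34 and 2.24 in DDC injury cells, against -0.05, -0.13 and -0.06 in no-injury cells. The arrays of each group lay close together and the groups far apart, and the difference was 2.37 ± 0.10, or 5.17-fold (adjusted p = 0.000858). Fabp5, the epidermal fatty acid-binding protein, read 3.23, 3.66 and 3.18 in DDC injury cells, against 1.31, 1.22 and 1.24 in no-injury cells. It was higher on every DDC injury array, by 2.11 ± 0.19, or 4.32-fold (adjusted p = 0.00395; without no-injury replicate 2, 2.08 and adjusted p = 0.0632). Lpl, the lipase that frees fatty acids from lipoproteins and is held back by Angptl4, read -3.74, -5.12 and -3.20 in DDC injury cells, against -2.49, -2.67 and -2.52 in no-injury cells. It was lower on every DDC injury array, but these arrays spread widely and the difference of -1.43 ± 0.62 did not pass (adjusted p = 0.153).

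The other binding proteins and the scavenger receptor Cd36 varied mainly between DDC injury replicate 1 and the other arrays. Cd36, which takes up fatty acids in fat, muscle, endothelium and macrophages, read -7.95, -4.95 and -4.69 in DDC injury cells, against -4.64, -5.23 and -4.33 in no-injury cells. Fabp4, the adipocyte and macrophage form, read -8.39, -4.97 and -6.42 in DDC injury cells, against -6.45, -4.70 and -6.06 in no-injury cells. In both genes replicate 1 was not well above background and the other DDC injury arrays lay among or near the no-injury arrays, so neither passed, at -1.01 ± 1.15 (adjusted p = 0.55) and -1.12 ± 1.17 (adjusted p = 0.515). Without replicate 1 the difference was 0.03 for Cd36 and -0.22 for Fabp4. Fabp7, the brain form, went the other way on that array: it read -0.19, -7.80 and -8.15 in DDC injury cells, against -7.36, -7.20 and -7.01 in no-injury cells. Fabp3, the heart form, read -2.69, -5.31 and -5.75 in DDC injury cells, against -4.95, -4.74 and -4.63 in no-injury cells. With replicate 1 these 2 genes differed by 1.81 ± 2.79 (adjusted p = 0.656) and 0.18 ± 1.03 (adjusted p = 0.909), and without it Fabp3 was lower, at -0.76 (adjusted p = 0.0479). The remaining DDC injury arrays of Fabp7 were not well above background, so no direction is read without replicate 1. Fabp1, the liver form and a usual hepatocyte gene, was well above background on 1 no-injury array and on no DDC injury array, and no fold is given.

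DDC injury replicate 1 was also the lowest array in the summed markers of 4 other cell types, as the plot of the most variable genes beside the marker sums shows, although replicate 3 was nearly as low in macrophage markers. Summed adipocyte markers were at 2%, 7.08% and 5.78% of the 75th percentile in DDC injury cells, against 6.81%, 15.1% and 8.96% in no-injury cells, with 1 to 5 of 7 markers above background per array and Lep on none. Endothelial markers summed to 17.1%, 37.3% and 49.1%, against 47.6%, 49.4% and 53%. Stellate cell and fibroblast markers summed to 15.3%, 52.4% and 101%, against 35.8%, 41.9% and 50.8%, with Des and Reln above background on no array. Macrophage markers, of which Clec4f was above background on no array, summed to 280%, 612% and 300%, against 629%, 616% and 666%. That sum is mostly Cd14, which read 1.44, 2.54 and 1.34 in DDC injury cells, against 2.54, 2.54 and 2.60 in no-injury cells. Their part in the values of Cd36, Fabp4 and Plin5 was not tested.

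**Figure D3:**
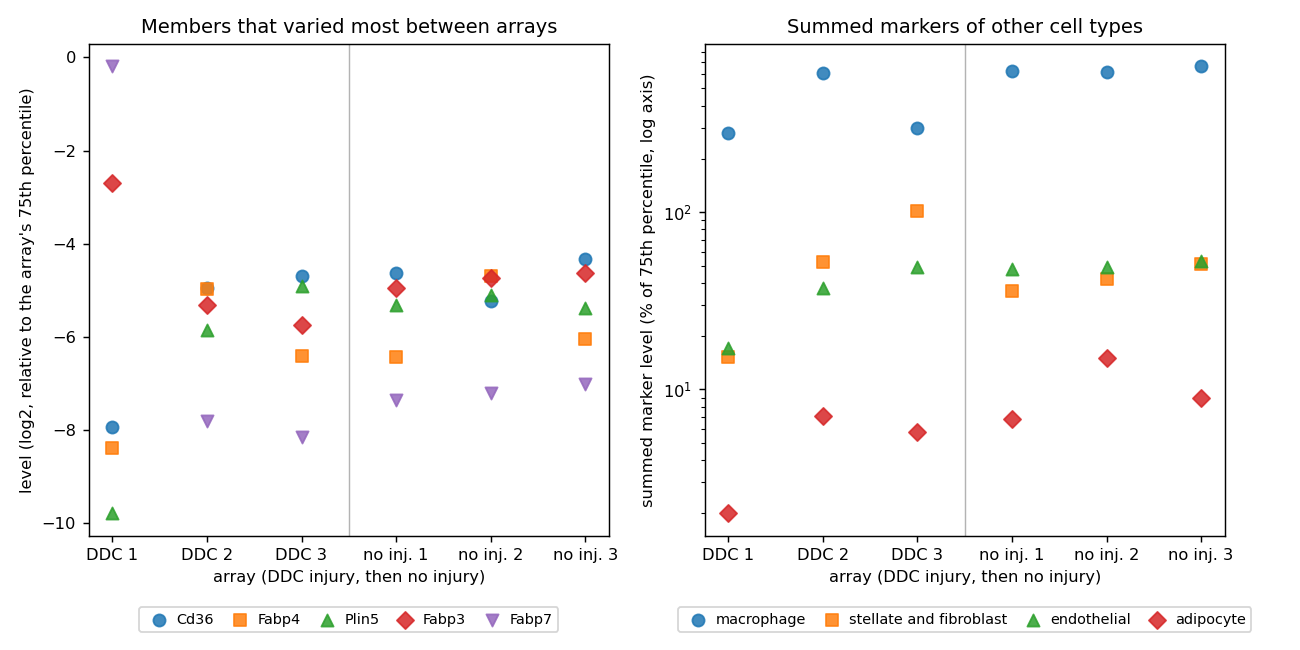
Left, level of the 5 genes with the widest range among DDC injury arrays, as log2 relative to the array's 75th percentile, for each of the 6 arrays. Right, summed signal of the marker genes of 4 other cell types on the same arrays, as percent of the 75th percentile on a log axis. DDC injury replicate 1 is lowest in Cd36, Fabp4 and Plin5, highest in Fabp3 and Fabp7, and lowest in all 4 marker sums, closely followed by replicate 3 in the macrophage sum (280% and 300%).

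Among 19 other genes of uptake, transport and activation that were tested, 3 were higher and 5 lower. These shares of 15.8% and 26.3% stand against 17.7% and 15.8% of all genes tested. Cav1, the coat protein of caveolae, was higher by 1.73 ± 0.30 (adjusted p = 0.0175) and Acbd3 by 0.69 ± 0.16 (adjusted p = 0.036). Ffar4, a receptor for long-chain fatty acids, was lower, at -3.05 ± 0.34 (adjusted p = 0.00614), and the fatty acid transport proteins Slc27a4 and Slc27a1 at -2.001 ± 0.45 (adjusted p = 0.0335) and -1.04 ± 0.18 (adjusted p = 0.0185).

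Storage and lipolysis was lower or did not pass. Of 11 genes tested among 12, 4 were lower in DDC injury cells (36.4%, against 15.8% of all genes tested) and none higher, and the median difference was -0.35. The class median lay under the no-injury mean on every DDC injury array, at -0.57, -0.30 and -0.24. Gpd1, which makes the glycerol phosphate on which triglyceride is built, read -4.36, -3.89 and -4.54 in DDC injury cells, against -1.21, -1.19 and -1.25 in no-injury cells. The groups were far apart, with -3.05 ± 0.22, or 8.29-fold lower (adjusted p = 0.00264), and Gpd1 was called lower under every one of the 19 alternatives. Dgat2, one of the pair of enzymes that add the last acyl chain, read -1.61, -1.78 and -1.56 in DDC injury cells, against -0.04, -0.13 and -0.10 in no-injury cells. It was lower on each DDC injury array, with -1.55 ± 0.12, or 2.93-fold lower (adjusted p = 0.00267). Dgat1, the other enzyme of that pair, read -0.36, -0.44 and -0.40 in DDC injury cells, against -0.51, -0.52 and -0.51 in no-injury cells. Its arrays did not overlap, in the opposite direction, but the difference of 0.12 ± 0.09 did not pass (adjusted p = 0.394).

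The perilipins, which coat lipid droplets and gate the access of lipases, did not move together. Plin4, a droplet coat of fat and muscle, read -4.94, -5.03 and -4.14 in DDC injury cells, against -2.55, -2.46 and -2.58 in no-injury cells. It was lower on all DDC injury arrays, at -2.20 ± 0.32, or 4.58-fold lower (adjusted p = 0.0114), and at -1.46 with normexp and quantile normalization. Plin3, the widely expressed coat of small droplets, read 2.41, 2.57 and 2.35 in DDC injury cells, against 3.04, 2.87 and 2.98 in no-injury cells, a difference of -0.49 ± 0.12 (adjusted p = 0.0417). Plin2, the main droplet coat of liver, read 3.86, 3.62 and 3.71 in DDC injury cells, against 3.85, 3.83 and 3.79 in no-injury cells. Its groups overlapped and it differed by -0.09 ± 0.11 (adjusted p = 0.583), although it passed as lower in the authors' deposited values, at -0.47 (adjusted p = 0.0381). Plin5, of oxidative tissues, read -9.79, -5.85 and -4.90 in DDC injury cells, against -5.31, -5.11 and -5.38 in no-injury cells. DDC injury replicate 1 was far below the rest, the difference was -1.62 ± 1.61 (adjusted p = 0.495), and without that array it was -0.15. Without DDC injury replicate 1 Plin3 stood at -0.48 (adjusted p = 0.0664) and without replicate 3 at -0.45 (adjusted p = 0.11), no longer past the threshold. Without no-injury replicate 2 Dgat2, Plin4 and Plin3 had adjusted p of 0.0557, 0.109 and 0.202. The hepatocyte marker sums given above were lower in DDC injury cells as these genes were, and their part in the storage genes was not tested.

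The Plin4 promoter window of RefSeq, on the minus strand at chr17:56109733-56110032 of GRCm38.p6, is shown as that of the gene of this class with the largest difference for which a window was matched.
Plin4: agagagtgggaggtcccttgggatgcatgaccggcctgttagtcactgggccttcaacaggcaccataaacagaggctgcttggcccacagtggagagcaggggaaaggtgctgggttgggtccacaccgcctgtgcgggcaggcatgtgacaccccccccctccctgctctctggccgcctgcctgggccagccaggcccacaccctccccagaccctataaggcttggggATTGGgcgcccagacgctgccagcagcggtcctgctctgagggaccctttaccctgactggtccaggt
It holds 1 CCAAT box, read as ATTGG on this strand, and neither of the other motifs.

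The acyltransferases Gpam, which starts glycerolipid synthesis, and Agpat2, the next enzyme, differed by -0.16 ± 0.15 (adjusted p = 0.474) and -0.26 ± 0.09 (adjusted p = 0.097). Agpat2 passed as lower under 5 of 19 alternatives, the authors' deposited values among them, at -0.38 (adjusted p = 0.0434). Of the lipases of this class, hormone-sensitive lipase (Lipe) at -0.29 ± 0.18 (adjusted p = 0.277) and monoglyceride lipase (Mgll) at -0.35 ± 0.48 (adjusted p = 0.617) were lower in direction without passing. Pnpla2, the first lipase of triglyceride breakdown, had flagged spots on 2 DDC injury arrays and was lower in direction with these spots kept, at -0.46 ± 0.13, without passing (adjusted p = 0.0626). Of 27 other genes of glycerolipid synthesis and droplets tested, 5 were higher and 5 lower. That was 18.5% each way, against 17.7% and 15.8% of all genes tested. G0s2, an inhibitor of Pnpla2, was higher by 2.06 ± 0.54 (adjusted p = 0.0479), the phosphatase Plpp1 by 1.17 ± 0.10 (adjusted p = 0.00337) and glycerol kinase (Gk) by 0.92 ± 0.17 (adjusted p = 0.0225). The droplet proteins Cidea and Cideb were lower, at -3.78 ± 0.20 (adjusted p = 0.0014) and -2.30 ± 0.32 (adjusted p = 0.0108), and the phosphatidate phosphatase Lpin3 at -3.48 ± 0.79 (adjusted p = 0.0343).

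**Figure D4:**
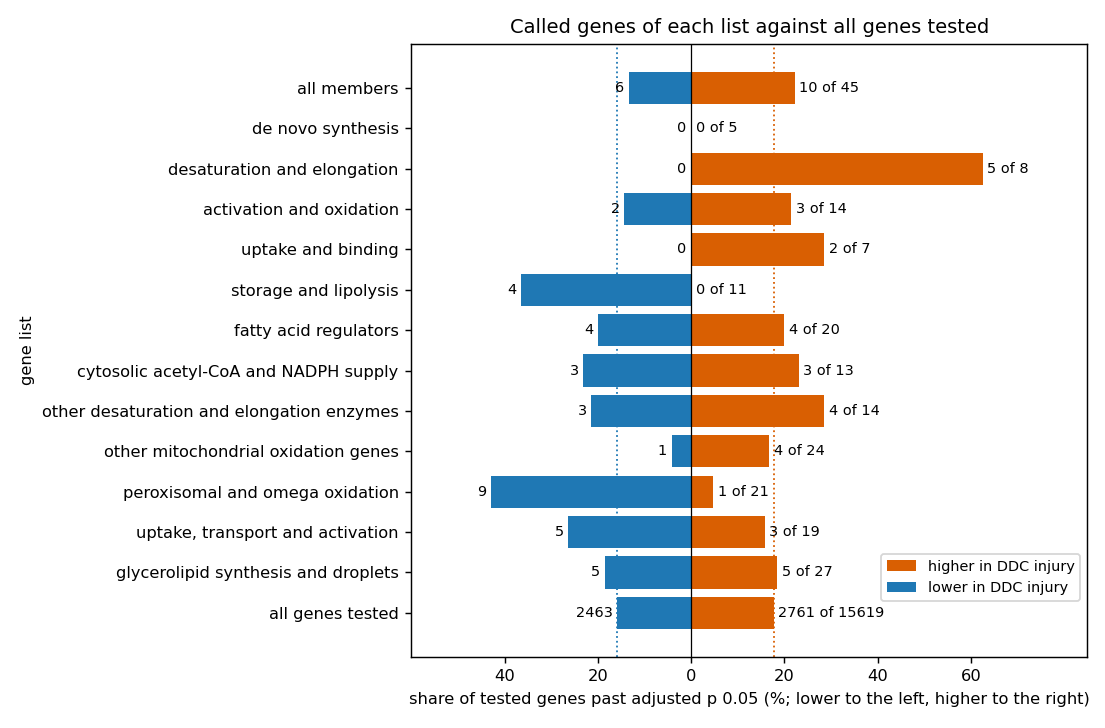
Share of tested genes called higher (to the right) and lower (to the left) in DDC injury cells, in percent, for the 50 genes, their 5 role classes, 7 other pathway lists and all genes tested. Numbers beside the bars are counts, and dotted lines mark the shares of all genes tested, 17.7% higher and 15.8% lower. Desaturation and elongation reaches 62.5% on the higher side, storage and lipolysis 36.4% and peroxisomal and omega oxidation 42.9% on the lower side.

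Of 20 tested transcription factors and cofactors that set these genes, 4 were higher and 4 lower, 20% each way, near the 17.7% and 15.8% of all genes tested. Srebf2, the SREBP of cholesterol synthesis, read 2.27, 2.08 and 2.17 in DDC injury cells, against 0.56, 0.63 and 0.63 in no-injury cells, a difference of 1.55 ± 0.11 (adjusted p = 0.00229). Insig1, which holds SREBPs in the endoplasmic reticulum and is itself an SREBP target, was higher by 1.25 ± 0.33 (adjusted p = 0.0478), and the nuclear receptor partner Rxra by 0.90 ± 0.22 (adjusted p = 0.0428). Srebf1, the SREBP of fatty acid synthesis, read -1.737, -0.998 and -1.68 in DDC injury cells, against -1.26, -1.25 and -1.33 in no-injury cells. Its groups overlapped and it did not pass, at -0.20 ± 0.27 (adjusted p = 0.613). Ppara, the receptor that drives hepatic fatty acid oxidation, read -2.11, -1.60 and -2.10 in DDC injury cells, against 0.24, 0.10 and 0.19 in no-injury cells. It was lower on every DDC injury array, at -2.09 ± 0.20, or 4.26-fold lower (adjusted p = 0.00493). Nr1h3, the liver X receptor alpha, was lower, at -1.76 ± 0.09 (adjusted p = 0.00132). The coactivator Ppargc1b, 1 of the 4 lower genes, was well above background on no DDC injury array and on all 3 no-injury arrays, and was at least 2.57-fold lower. It entered the test through the no-injury group alone, so its adjusted p of 0.00272 is no support. Pparg, the receptor of fat storage, differed by 0.71 ± 0.39 and did not pass (adjusted p = 0.242). The part of the lower hepatocyte markers in Ppara, Nr1h3 and Ppargc1b was not tested.

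**Figure D5:**
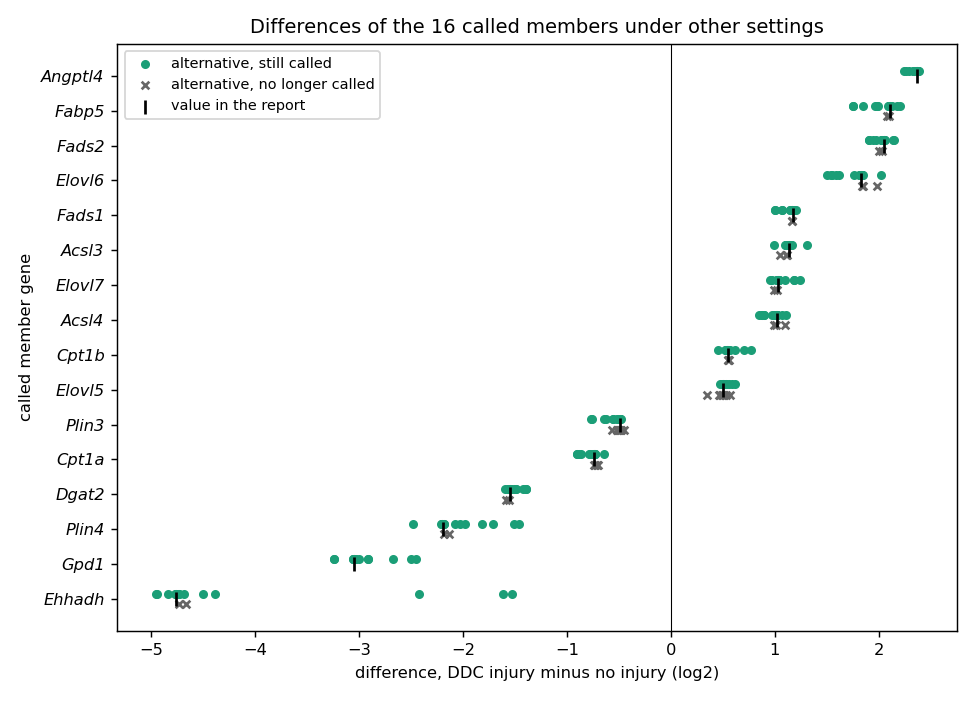
Log2 difference of the 16 called genes between DDC injury and no injury (DDC injury minus no injury), in the fit described here (black bar) and under 19 alternatives (18 for Ehhadh). Green circles are alternatives in which the gene was still called and grey crosses those in which it was not. Every gene keeps its side of 0, Angptl4 and Gpd1 have no cross, and Ehhadh ranges from -4.96 to -1.53.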

How the data were processed

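Cy3-labelled RNA of each of the 6 samples was put on 1 Agilent array (design 026655); whether the samples of a group came from separate cultures is not given in the sources used here. Per the file headers, the authors' scanner files hold intensity values from Feature Extraction 11.0.1.1; the processed signal, already background-subtracted and detrended, was used. The authors' deposited value table holds log2 values (column medians 6.921 to 6.927), and per the submitters' processing notes limma was used, without a version; the starting column and normalization are not given in the sources used here. Probes were named by transcript accession from a RefSeq table (GRCm38.p6). The arrays' own annotation is of mm9, so probe coordinates are not given. The coordinates printed are those of promoter windows in GRCm38.p6. Of 39429 probes 27234 had 1 symbol and 12195 none.

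Control spots and flagged spots were left out and repeated spots averaged. A gene is the named probe with the highest mean, tested if it passed the scanner's background test on 3 or more of 6 arrays and had 2 or more values per group; no pseudocount was added. The 2 groups were tested by limma 3.58.1 (R 4.3.3, lmFit, eBayes, two-sided, Benjamini-Hochberg over all genes tested, threshold 0.05). The fit was also run on simulated data with equal spread in both groups. The spread of the measured groups was unequal, so that run does not show how well the p-values hold here. Where no array of a group had a gene well above background, its fold is a bound: for each such array, its own signal or the lowest one counted as above background, whichever was higher, was used. The number of samples limits the precision. Values on every array are given for fixed landmark genes and for up to 3 called genes each way in each role class, and up to 3 called genes each way are named from each of 7 pathway lists with 151 entries; 1 of these genes is not reported here. The genes and lists were chosen with earlier results of these data known.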

Additional observations from a re-analysis of the deposited data

How the results depend on the processing

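The 19 alternatives gave 847 differences of the 45 tested genes: 739 kept direction and side of the threshold, 44 lost the threshold, 30 gained it and 34 changed sign. Over all genes, 2761 higher and 2463 lower became 342 and 206 with all no-injury arrays merged and 4396 and 4173 with array weights, and the counts without 1 replicate ran from 344 to 3747 higher and from 198 to 3141 lower. Among the 50 genes, the count higher was 1 with all no-injury arrays merged and 1 to 10 without 1 replicate. The count lower was 10 with normexp and quantile normalization, 10 with all 6 arrays counted separately, 11 with array weights, 1 with all no-injury arrays merged and 1 to 8 without 1 replicate. Both counts were lowest without no-injury replicate 2, which leaves 1 no-injury sample, and next lowest, at 5 and 4, without DDC injury replicate 3. The median difference of the members was 0.0343 with normexp and the 75th percentile, -0.0134 with normexp and quantile normalization, -0.0231 in the authors' values, 0.0655 with probes above background on every array, -0.042 without a filter, -0.0446 with the mean of all probes and -0.0842 to 0.0159 without 1 replicate. Elovl5 lost its call under quantile normalization (adjusted p = 0.0686), and Elovl5 (adjusted p = 0.0697) and Plin3 (adjusted p = 0.0651) with scan as a random block, whose estimated correlation was 0.176. Cpt1a, Elovl5 and Plin3 lost theirs without a filter on dim probes, with adjusted p of 0.0585, 0.0873 and 0.0797. The alternative that keeps flagged spots was chosen after seeing the data, and it changed no call of the 45 genes.

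Signs that turned belonged to genes that had not passed. With normexp and the 75th percentile Acacb was 0.17, Acadvl -0.0221, Gpam 0.00404 and Mgll 0.0343. With normexp and quantile normalization Acacb was 0.0269, Elovl1 -0.0806, Acsl5 -0.0849, Acadvl -0.154, Acads 0.021 and Gpam 0.054. With quantile normalization Acacb was 0.0129, Scd2 -0.00283, Elovl1 -0.141 and Acadvl -0.0865. In the authors' values Acacb was 0.0448, Elovl1 -0.0824, Acsl5 -0.086, Acadvl -0.158, Acads 0.02 and Gpam 0.0532. With the mean of all probes Acacb was 0.19, Elovl1 -0.0342 and Fabp3 -0.0446, and with array weights Elovl1 was -0.183, Acadvl -0.0114 and Fabp3 -0.561. Without 1 replicate the differences ran from -0.00398 to 0.289 in Acaca, -0.12 to 0.148 in Elovl1, -0.052 to 0.13 in Acadvl, -1.59 to 0.0345 in Cd36, -0.764 to 0.765 in Fabp3, -0.784 to 3.20 in Fabp7 and -0.596 to 0.0874 in Mgll. Keeping the arrays of the second scan day leaves out DDC injury replicate 1 and gave -0.00261 in Elovl1, 0.0345 in Cd36, -0.764 in Fabp3, -0.784 in Fabp7, whose remaining DDC injury arrays were not well above background, and 0.0874 in Mgll. The cause of these changes was not tested.

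Same-numbered arrays of the 2 groups deviated together with correlations of 0.117, 0.018 and 0.122 over 15428 genes, against -0.145 to 0.019 for arrays of different numbers. The values of replicates 1 and 3 were thus the highest, but all were weak, and the numbers were not taken as pairs. With the replicate block and all 6 arrays, 2839 genes were higher and 2726 lower, and among the 50 genes 10 were higher and 6 lower, with Plin3 lost (adjusted p = 0.0511) and Hadhb gained. The smallest difference called among the 50 genes was -0.49, in Plin3. Where 1 no-injury sample is left, it is assumed to vary as the DDC injury samples do.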

Other observations

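The pathway lists held further called genes, which are named here after their values were seen because they complete each list's count. In peroxisomes, Phyh, which starts the breakdown of phytanic acid, was at -1.64 ± 0.16 (DDC injury minus no injury, log2, adjusted p = 0.0047), the proliferation factor Pex11a at -0.99 ± 0.10 (adjusted p = 0.00553) and the carnitine octanoyltransferase Crot at -0.75 ± 0.10 (adjusted p = 0.0103). Acox3, Acaa1b and Scp2, of the same list, were at -0.86, -0.69 and -0.63. Of the droplet genes, Pnpla3, a droplet lipase, was at -1.77 ± 0.13 (adjusted p = 0.00274) and the phosphatase Plpp3 at -1.02 (adjusted p = 0.0448), while the droplet-budding protein Fitm2 was at 0.82 ± 0.13 (adjusted p = 0.0147) and Apob, the scaffold of secreted lipoproteins, at 0.67 ± 0.12 (adjusted p = 0.0173). The lysosomal lipase Lipa was at -0.66 and Lmf1, which matures lipoprotein lipase, at -0.49. Of the regulators and remaining enzymes, Ppargc1a, a coactivator of oxidation, was at -1.64 ± 0.24 (adjusted p = 0.0114), Cebpb at 0.37, the elongation-cycle reductase Hsd17b12 at 0.47 and Etfa, which carries electrons from beta-oxidation, at 0.36.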
